A study of Mus musculus with 16 samples.

Results

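Vacuolar ATPase, Ragulator, lysosomal channel and lysosome-positioning genes were examined in mouse left ventricle, in 34 genes of the 57186 gene IDs of the deposited count table. The members were the rows whose Ensembl ID matched a listed symbol: 7 subunits of the membrane-embedded V0 sector of the pump, 8 of the cytosolic V1 sector, 2 accessory subunits, the 5 Ragulator subunits, a nutrient sensor with 4 ion channels (5 genes), and 7 genes of the BORC complex and its partner Arl8. All 34 passed the filter on low counts that left 15206 genes for testing. The hearts came from C57/BL6N mice of 4 groups, with 4 biological replicates each, 16 libraries in all. The control genotype is given as WT and the knockout as cKO-TFEB, a loss of the transcription factor TFEB restricted to cardiomyocytes (cKO here). Each genotype had sham surgery or transverse aortic constriction (TAC), which narrows the aorta so that the left ventricle pumps against a raised pressure. The Cre driver, whether the control mice carried floxed alleles or Cre, and age, sex and the time after surgery were not stated. The tissue was whole ventricle, so a cardiomyocyte knockout leaves Tfeb in the other cells, and in such bulk samples fewer cells of a type and less RNA per cell cannot be told apart.

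The vacuolar ATPase is a rotary proton pump that acidifies lysosomes: V1 splits ATP in the cytosol, and V0 carries protons across the membrane. Ragulator anchors Rag GTPases on the lysosomal surface, where amino acids switch on the kinase mTORC1, and mTORC1 in turn holds TFEB in the cytosol. BORC and Arl8 link lysosomes to kinesin motors for transport towards the cell edge, and the lysosomal channels release calcium, sodium or potassium ions. TFEB and its relatives TFE3 and MITF are known to bind E-box motifs with a CACGTG core, and many lysosomal and proton pump genes are among the known TFEB targets in other cells.

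The promoters were searched for such motifs because each member with a promoter sequence could be asked whether it carried one and then whether it followed Tfeb. RefSeq promoter windows (GRCm38.p6, 250 bases before to 50 bases after the start of transcription) were at hand for 26 of the 34 genes. CACGTG was found in windows of 8 of these 26 genes (30.8%), against 8.09% of the 27025 genes with a window. The longer TCACGTGA, which contains CACGTG and reads the same on both strands, was in 5 of 26 (19.2%; Atp6v0d1, Atp6v0e, Atp6v1a, Bloc1s1 and Mcoln1), against 1.12% of all genes. GTCACGTG, searched on both strands and also containing the core, was in 4 of 26 (15.4%, against 2.55%). TCATGTGA, searched on both strands, was in 3 of 26 (11.5%; Atp6v0c, Lamtor1 and Lamtor2, against 1.15%). The 27025 genes include many that did not pass the filter on low counts, which all members passed. Matches to letters describe these windows only. The stretches before the start of transcription with a match are printed for the members the values below turn on, 5′ to 3′ on the gene's strand, with the matches in capitals. Matches in Atp6v0d1 and Atp6v0e reached the start or lay after it and are not shown.
Mcoln1 (chr8:3500416-3500511, plus strand): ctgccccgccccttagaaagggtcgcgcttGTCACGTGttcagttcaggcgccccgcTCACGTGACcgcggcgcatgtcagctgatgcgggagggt
Atp6v1a (chr16:44139354-44139421, minus strand): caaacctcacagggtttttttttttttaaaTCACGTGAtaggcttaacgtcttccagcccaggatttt
Bloc1s1 (chr10:128923525-128923575, minus strand): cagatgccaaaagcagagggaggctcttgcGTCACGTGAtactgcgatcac
Atp6v0b (chr4:117887330-117887397, minus strand): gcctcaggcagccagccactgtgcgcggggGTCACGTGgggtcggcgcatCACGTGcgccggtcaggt
Lamtor1 (chr7:101905709-101905804, plus strand): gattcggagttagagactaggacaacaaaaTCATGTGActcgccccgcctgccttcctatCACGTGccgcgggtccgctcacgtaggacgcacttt
Lamtor2 (chr3:88553022-88553089, minus strand): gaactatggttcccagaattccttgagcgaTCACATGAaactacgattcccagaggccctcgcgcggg
Lamtor4 (chr5:138255332-138255413, plus strand): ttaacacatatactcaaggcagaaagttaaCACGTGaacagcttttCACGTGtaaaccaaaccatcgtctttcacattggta
Atp6v0c (chr17:24169451-24169497, minus strand): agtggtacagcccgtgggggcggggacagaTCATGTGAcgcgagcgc
In Lamtor2 the capitals are TCATGTGA as read on the opposite strand. Mcoln1 carries the core at 2 places, as do Atp6v0b and Lamtor4.

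Each library held 12946878 to 16347388 counts over genes. In CPM (counts relative to library size, with TMM factors), the WT sham libraries held Tfeb, the targeted gene, at 30.9, 37.4, 40.1 and 37.6, and the cKO sham libraries at 10.0, 9.12, 9.68 and 13. After TAC it stood at 40, 34.6, 20.6 and 21.1 CPM in WT hearts and at 14.7, 13.8, 13 and 9.37 CPM in cKO hearts. No cKO library reached a WT library of the same surgery. The cKO level was 0.287 of WT after sham surgery (log2 -1.80, standard error (SE) 0.20, adjusted p = 0.000604, edgeR's quasi-likelihood test with Benjamini-Hochberg adjustment, as for every adjusted p given here unless another tool is named) and 0.439 of WT after TAC (-1.19, SE 0.20, adjusted p = 0.0138). The TAC value passed with all libraries but not without WT TAC replicate 2 (adjusted p = 0.0645) or with those 2 groups fitted alone (0.0543). Tfe3 did not pass between the genotypes. With TAC Tfe3 rose in cKO (0.27, adjusted p = 0.0463), though those groups overlapped, and its WT value was 0.25 (adjusted p = 0.0828). Mitf was lower in cKO averaged over both surgeries (-0.30, SE 0.09, adjusted p = 0.042) and fell with TAC in WT (-0.49) and in cKO (-0.59). Of 10 cardiomyocyte markers, 3 fell with TAC in WT, 6 fell in cKO and 3 were lower in cKO over both surgeries. Their summed level was 84160 to 89447 CPM in WT sham, 66829 to 78807 in WT TAC, 77715 to 90573 in cKO sham and 51414 to 71482 in cKO TAC, so the libraries read as cardiac muscle. Fibroblast markers went the other way, from 2176 to 3157 CPM in WT sham to 3488 to 5576 in WT TAC, and from 2426 to 3771 in cKO sham to 4902 to 8801 in cKO TAC. Of these 10, 6 rose in WT, 7 rose and 1 fell in cKO, and 4 were higher in cKO over both surgeries. Macrophage and monocyte markers summed to 247 to 388 CPM in WT sham, 443 to 603 in WT TAC, 330 to 639 in cKO sham and 595 to 822 in cKO TAC. Of these 14, 8 rose with TAC in WT, 10 in cKO, and 8 were higher in cKO over both surgeries. Of all tested genes 9.7% rose and 6.14% fell with TAC in WT, and 14.2% rose and 12.4% fell in cKO. Over both surgeries 9.06% of all tested genes passed between the genotypes. No marker of these 3 lists was at 0. Their part in the values below was not tested. WT sham replicate 3 and WT TAC replicate 4 held the most atrial transcripts (2763 and 1008 CPM, against 37.64 to 340.9 in the other libraries).

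**Figure D1:**
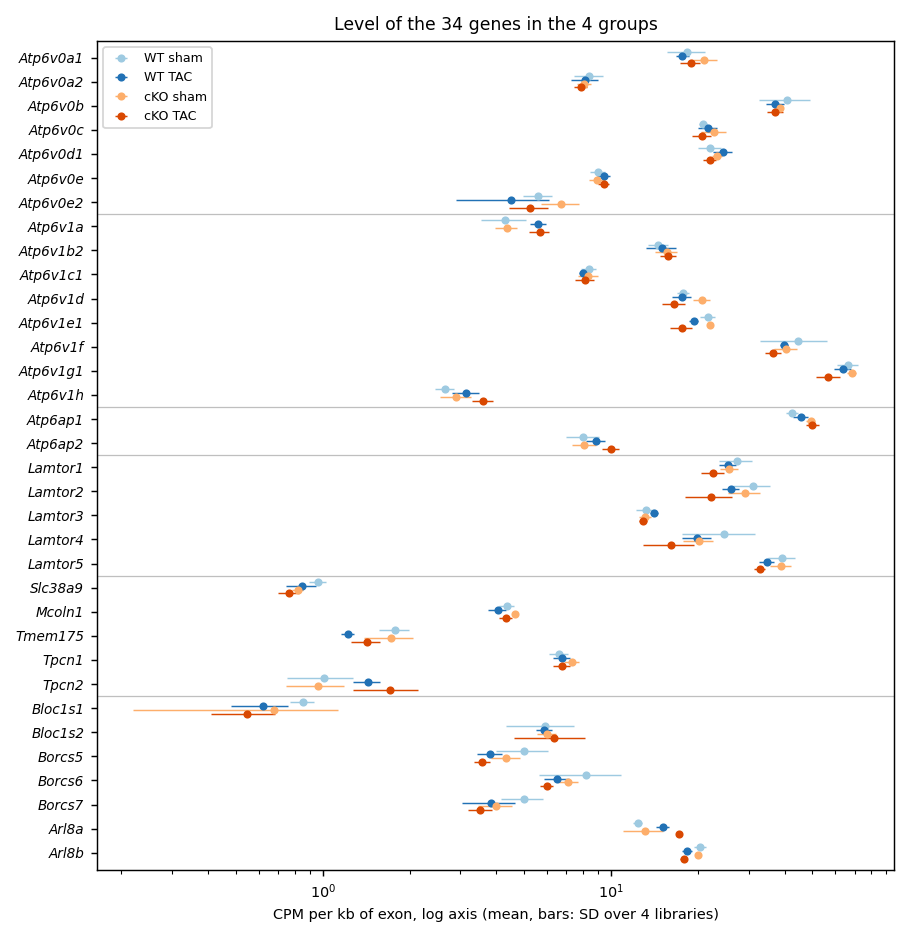
Mean level of each of the 34 genes in CPM per kilobase of annotated exon (log axis), with bars for the SD over the 4 libraries of a group and colours for the 4 groups. Atp6v1g1 (63.8 CPM per kilobase over all libraries) and Atp6ap1 (46.8) lie at the right, and Bloc1s1 (0.672) and Slc38a9 (0.847) at the left, and for most genes the 4 groups lie close together.

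Pump subunits covered a wide range of levels when divided by exon length. Over all 16 libraries the V1 stalk subunit gene Atp6v1g1 stood at 63.8 CPM per kilobase, the accessory subunit gene Atp6ap1 at 46.8, the V1 gene Atp6v1f at 40.3 and the V0 gene Atp6v0b at 38.4. The catalytic subunit gene Atp6v1a stood at 4.96 and the regulatory Atp6v1h at 3.08. Lamtor5 led Ragulator at 36.4 CPM per kilobase and Lamtor3 was lowest there at 13.3. The channel genes were lower, with Tpcn1 at 6.86, Mcoln1 at 4.33, Tmem175 at 1.54 and Tpcn2 at 1.28. Exon lengths are the union of all annotated transcripts in a GRCm38 annotation, so a gene with a long rare transcript, such as Slc38a9 with 16704 exon bases, is understated on this scale. The median within-group SD of the members was 0.13 on the log2 scale, against 0.22 over all tested genes. It was above 0.22 in 7 members: Borcs6 and Borcs7 (0.23 each), Lamtor4 (0.26), Bloc1s2 (0.29), Atp6v0e2 (0.30), Tpcn2 (0.32) and Bloc1s1 (0.48). Bloc1s1 had 203 counts over all libraries and 55.9% of its exon bases shared with Rdh5 on the same strand, so its reads cannot be told apart from those of Rdh5 there.

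The first question was whether loss of Tfeb in cardiomyocytes lowered these genes. It did not lower any of them past the threshold. After sham surgery 0 of the 34 genes passed between cKO and WT in edgeR, where 1.17% of all tested genes did. With an unadjusted p under 0.05 there were 3 (Atp6ap1, Atp6v1d and Slc38a9), where 15% of all tested genes had one. DESeq2 called 1 (Atp6ap1) and limma voom called 0. After TAC 0 of 34 passed, where 1.78% of all tested genes did. None had an unadjusted p under 0.05, where 17.4% of all tested genes had one, and none was called by DESeq2 or limma voom. With the genotypes compared over both surgeries, which uses all 16 libraries, 1 of 34 passed, and it was higher in cKO, where 9.06% of all tested genes passed. That gene, Atp6ap1, was also the 1 called by DESeq2 and by limma voom. An unadjusted p under 0.05 was found for 4 of the 34, against 24.5% of all tested genes. The median log2 difference of the 34 genes over both surgeries was -0.02, against -0.01 for all tested genes, and single genes ranged from -0.29 (Lamtor4) to 0.24 (Atp6v0e2). Leaving out Bloc1s1, the 95% intervals of the other 33 differences lay between -0.54 and 0.52 on the log2 scale, where Tfeb itself was at -1.50. The sign was the same after sham surgery and after TAC in 23 of 34 genes (67.6%), against 65.9% of all tested genes.

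**Figure D2:**
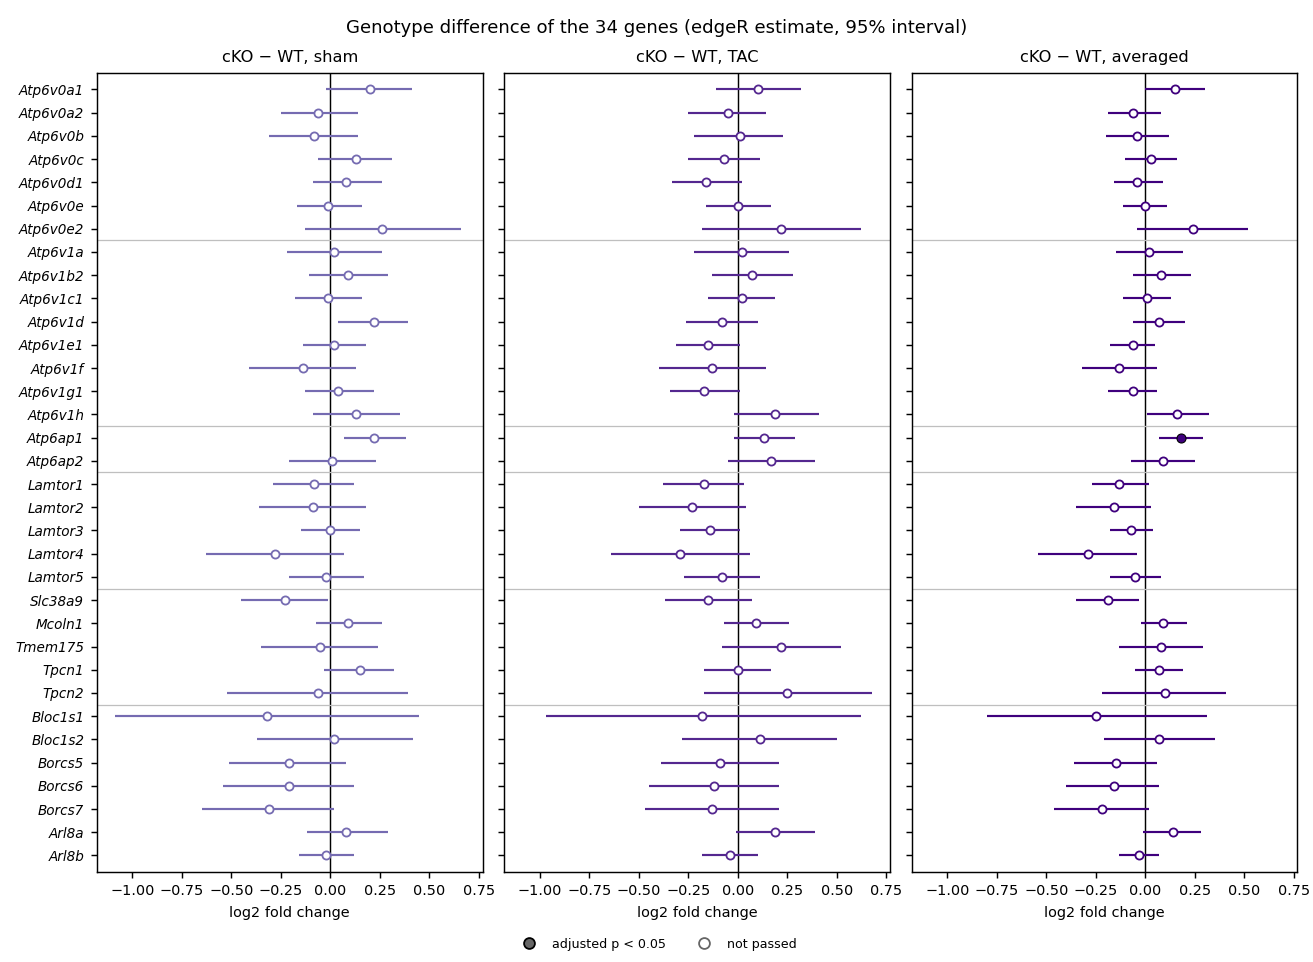
Log2 fold change of cKO against WT for each of the 34 genes after sham surgery, after TAC and averaged over both, with bars for the 95% interval from the edgeR model over 16 libraries and filled points for an adjusted p under 0.05. The single filled point is Atp6ap1 in the averaged comparison, at 0.18.

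Atp6ap1 encodes an accessory subunit needed for assembly of the pump. It was measured at 125, 137, 127 and 124 CPM in WT sham hearts and at 144, 157, 149 and 148 CPM in cKO sham hearts. In TAC hearts it was 148, 134, 130.2 and 139 CPM in WT and 159.6, 156, 143 and 146 CPM in cKO. Every cKO sham library lay above every WT sham library, and the TAC groups overlapped. The averaged difference was 0.18 (SE 0.05, adjusted p = 0.0377), or 13.1% higher in cKO, with 0.22 after sham surgery (adjusted p = 0.139) and 0.13 after TAC (adjusted p = 0.364). The interval of the averaged difference ran from 0.07 to 0.29. The call rested on the full set of libraries: it ended without WT sham replicate 3 or 4, WT TAC replicate 2, 3 or 4, cKO sham replicate 2 or 4, or cKO TAC replicate 1, 2 or 4, with a value of 0.16 to 0.18 and an adjusted p of 0.0549 to 0.0986 each time. It also ended without the 2 WT libraries highest in atrial transcripts (0.0793) and without the filter on low counts (0.195). Atp6ap2, the other accessory subunit gene and the prorenin receptor, differed by 0.09 (SE 0.07, adjusted p = 0.49).

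Genes with a full TCACGTGA in the promoter window did not pass between the genotypes either. Mcoln1, the calcium channel of the lysosome and a textbook TFEB target, stood at 32.2, 30.5, 34.8 and 33.8 CPM in WT sham hearts and at 34.7, 34.1, 35.2 and 36.1 CPM in cKO sham. In TAC hearts it was 32.2, 27.9, 29.6 and 32.5 CPM in WT and 31.5, 34.5, 31 and 33.4 CPM in cKO. The groups overlapped in all 4 pairwise comparisons. Its difference was 0.09 in both surgeries, and the averaged interval ran from -0.02 to 0.21. Over the 5 genes with TCACGTGA the averaged differences ran from -0.25 (Bloc1s1) to 0.09 (Mcoln1). Of these, 0 of 5 passed the threshold, where 9.06% of all tested genes did. Over the 8 genes with CACGTG they ran from -0.29 to 0.09 with a median of -0.04, and over the 3 genes with TCATGTGA from -0.16 to 0.03. No gene of either set passed between the genotypes, where 1.17% of all tested genes passed after sham surgery, 1.78% after TAC and 9.06% averaged. Sets this small can hold 0 calls at such shares.

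Several members fell short of the threshold between the genotypes. Slc38a9, the arginine sensor that acts with Ragulator, was measured at 16.1, 14.6, 17.2 and 16.3 CPM in WT sham hearts and at 13.7, 13, 13.4 and 14.5 CPM in cKO sham hearts. These sham groups did not overlap, but their difference of -0.23 did not pass (adjusted p = 0.307). After TAC the groups overlapped (-0.15, adjusted p = 0.521), and the averaged difference was -0.19 (SE 0.07, adjusted p = 0.121). Lamtor4, a small Ragulator subunit gene, had the lowest averaged value, -0.29 (SE 0.12, adjusted p = 0.14). WT sham replicate 1 lay far above its group for Lamtor4 at 45.4 CPM, against 26 to 29.7 in the others. Atp6v1h stood at 0.16 (adjusted p = 0.181) and the V0 gene Atp6v0e2 at 0.24 (adjusted p = 0.282). Atp6v0e2 passed without WT TAC replicate 4 (0.37, adjusted p = 0.0487), Atp6v0a1 without WT sham replicate 1 (0.20, 0.0493), Slc38a9 without WT TAC replicate 1 (-0.23, 0.0419) and Arl8a without cKO sham replicate 3 (0.19, 0.0307).

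The next question was how pressure overload moved these genes in control hearts. Of the 34, 1 rose and 1 fell with TAC in WT: Atp6v1a was higher, and Tmem175, a lysosomal potassium and proton channel gene, was lower. This is 2 of 34, where 15.8% of all tested genes passed, 9.7% higher and 6.14% lower. The median of the 34 log2 changes was -0.06, against -0.01 over all tested genes. With an unadjusted p under 0.05 there were 9 members, where 31.3% of all tested genes had one. DESeq2 called 5 and limma voom 2. With libraries scaled by their totals alone, where the median of all genes moved to 0.11, the split was 5 higher and 0 lower. The count was 1 without the 2 libraries highest in atrial transcripts, 1 with the WT groups fitted alone, and 1 without WT sham replicate 1 or 4 or WT TAC replicate 1, 2 or 3.

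In cKO hearts 9 of the 34 genes changed with TAC, 5 higher and 4 lower. This share equals that of all tested genes, 26.5%, of which 14.2% were higher and 12.4% lower. The 5 that rose were the V1 genes Atp6v1a and Atp6v1h, the accessory Atp6ap2, the sodium channel gene Tpcn2 and the transport GTPase gene Arl8a. The 4 that fell were the V1 genes Atp6v1d, Atp6v1e1 and Atp6v1g1 and the Ragulator gene Lamtor2. The median of the 34 log2 changes was -0.13, against 0.00 over all tested genes. With libraries scaled by their totals alone, where the median of all genes moved to 0.20, the split was 6 higher and 0 lower: the 4 that fell no longer passed, and Atp6v0e passed as higher (0.28, adjusted p = 0.0156). The members' changes had the same sign in WT and cKO in 29 of 34 genes (85.3%), against 78.3% of all tested genes.

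**Figure D3:**
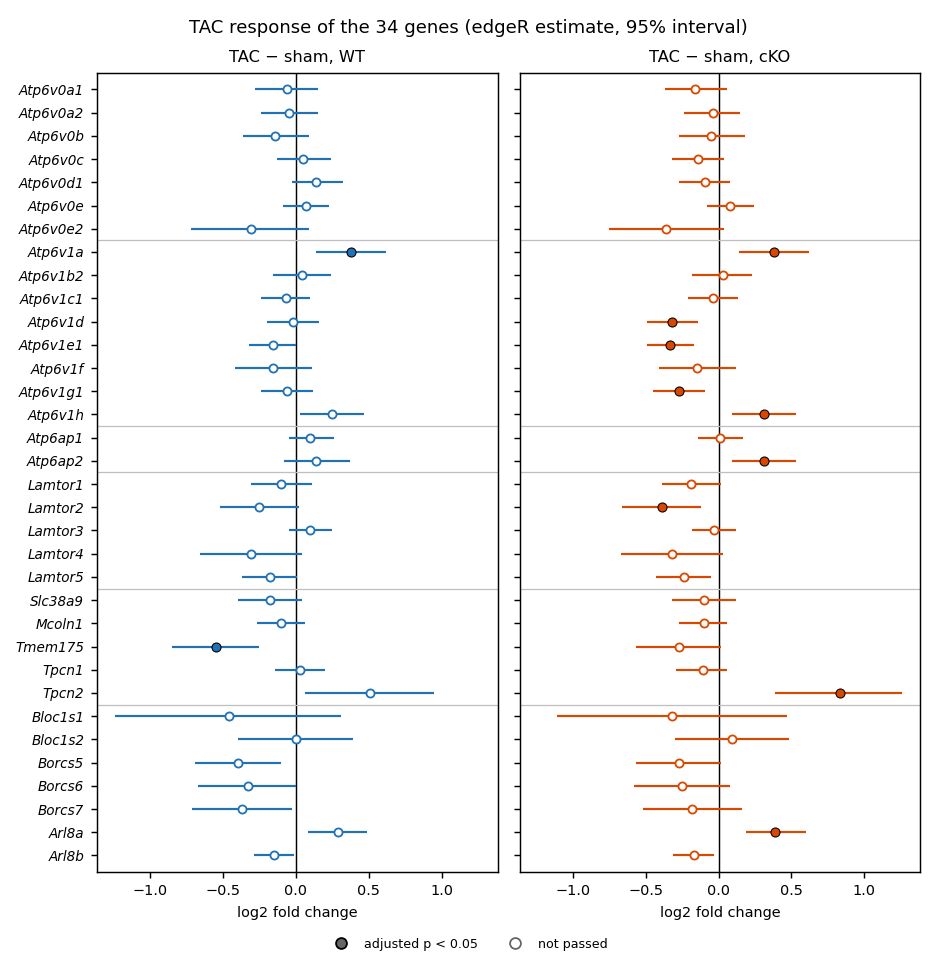
Log2 fold change of TAC against sham for each of the 34 genes in WT and in cKO, with bars for the 95% interval from the edgeR model over 16 libraries and filled points for an adjusted p under 0.05. There are 2 filled points in WT and 9 in cKO, and Atp6v1a is the single gene filled in both.

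The difference between the 2 responses did not pass for any member. The interaction, in which the WT change with TAC is subtracted from the cKO change, called 0 of 34 members in edgeR, and 0% of all tested genes. Atp6v1d was the 1 member with an unadjusted p under 0.05 (-0.29, SE 0.12, unadjusted p = 0.0257, adjusted p = 0.946), where 4.7% of all tested genes had one. DESeq2 and limma voom called 0. The 9 calls in cKO against 2 in WT therefore do not show that the members responded differently in the 2 genotypes.

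**Figure D4:**
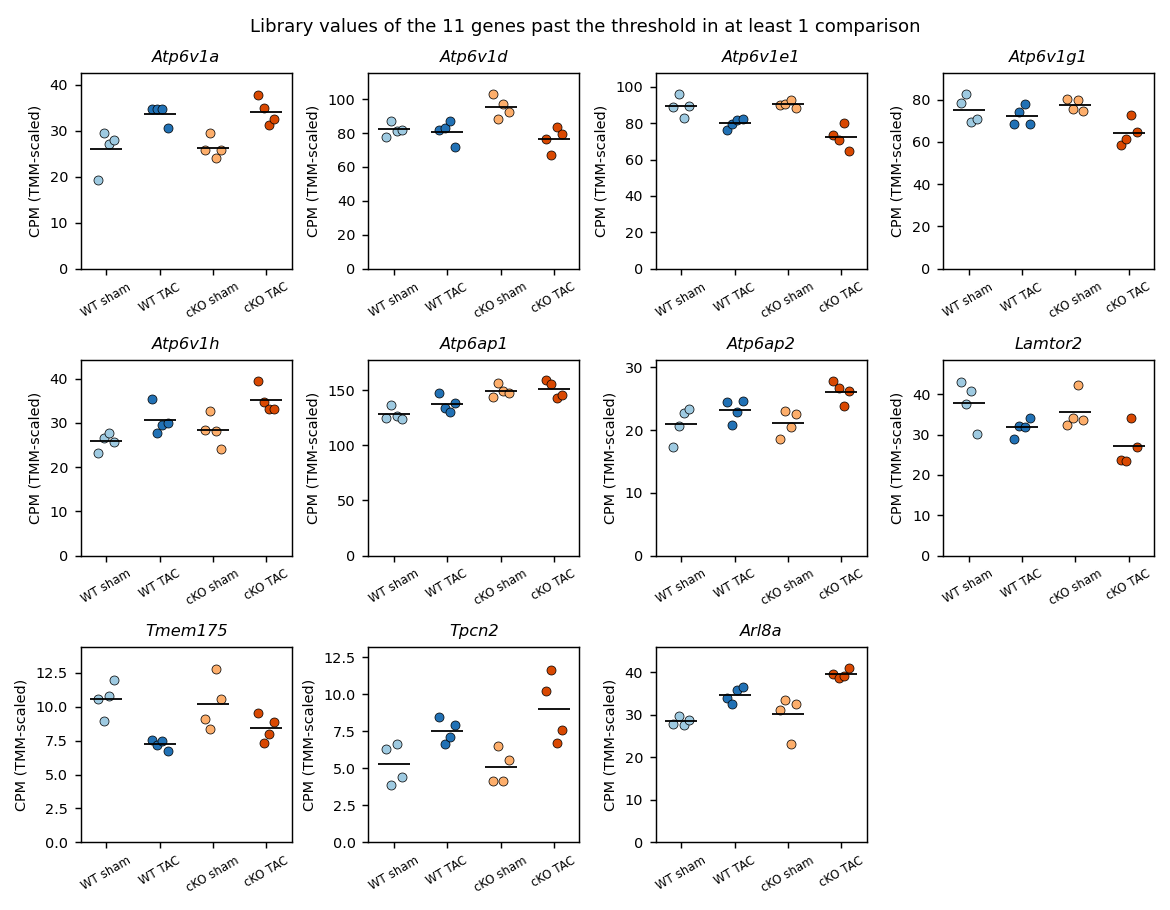
CPM in each library for the 11 genes past the threshold in at least 1 comparison, as 1 point per library with a line for the group mean over 4 libraries. The TAC libraries lie above all sham libraries of their genotype for Atp6v1a, and below them for Atp6v1e1.

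Of the 9 genes that changed with TAC in cKO, 5 were V1 genes, out of 8 tested, with 2 higher and 3 lower. Of all tested genes 26.5% passed in this comparison, and the V1 and V0 sectors were not tested against each other. The calls of Atp6v1a, Atp6v1g1 and Atp6v1h ended when certain single libraries were left out, as given below. Atp6v1a, the catalytic subunit gene that binds ATP, was measured at 19.2, 29.6, 27 and 27.9 CPM in WT sham hearts and at 34.7, 34.8, 34.8 and 30.5 CPM in WT TAC hearts. In cKO it was 25.7, 29.4, 24 and 25.9 CPM after sham surgery and 37.7, 34.9, 31.3 and 32.6 CPM after TAC. All TAC libraries lay above all sham libraries within each genotype. The change was 0.38 in WT (SE 0.12, adjusted p = 0.0328) and 0.38 in cKO (SE 0.11, adjusted p = 0.0215), 1.3-fold in each. WT sham replicate 1 was the lowest library, and without it the WT change was 0.26 (adjusted p = 0.0688).

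Atp6v1h, a regulatory subunit gene at the V1 and V0 interface, followed the same direction. It was measured at 23.3, 26.7, 27.7 and 25.6 CPM in WT sham, 35.5, 27.8, 29.5 and 30 CPM in WT TAC, 28.3, 32.7, 28.1 and 24.2 CPM in cKO sham, and 39.4, 34.8, 33.1 and 33.1 CPM in cKO TAC. TAC and sham libraries did not overlap in either genotype. It rose in cKO (0.31, SE 0.10, adjusted p = 0.0341), and the WT value was 0.25 (SE 0.10, adjusted p = 0.11).

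The 3 V1 genes that fell in cKO encode parts of the stalks that join V1 to V0: Atp6v1e1 and Atp6v1g1 the outer stalks and Atp6v1d the central rotor. Atp6v1e1 was measured at 89.1, 96.1, 82.6 and 89.3 CPM in WT sham, 76.1, 79.3, 81.9 and 82.3 CPM in WT TAC, 90.2, 90.8, 92.5 and 88.6 CPM in cKO sham, and 73.4, 70.9, 80.0 and 64.5 CPM in cKO TAC. TAC libraries lay below sham libraries in both genotypes. It fell in cKO (-0.33, SE 0.08, adjusted p = 0.00462), and the WT value was -0.16 (SE 0.08, adjusted p = 0.161).

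Atp6v1d was measured at 77.9, 87.3, 81.4 and 82 CPM in WT sham, 81.9, 82.8, 86.9 and 72 CPM in WT TAC, 103, 88.3, 97.3 and 92.6 CPM in cKO sham, and 76.5, 67, 83.7 and 79.2 CPM in cKO TAC. Here the cKO sham libraries stood above all 12 others. The fall in cKO was -0.32 (SE 0.09, adjusted p = 0.0111), where the WT change was -0.02 (SE 0.09, adjusted p = 0.891). The cKO TAC libraries were not separated from WT TAC (-0.08, adjusted p = 0.705), and cKO sham stood 0.22 above WT sham (adjusted p = 0.232).

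Atp6v1g1 was measured at 78.3, 82.9, 69.4 and 70.8 CPM in WT sham, 68.3, 74.1, 78.1 and 68.5 CPM in WT TAC, 80.4, 75.8, 79.7 and 74.8 CPM in cKO sham, and 58.5, 61.3, 72.8 and 64.9 CPM in cKO TAC. The WT groups overlapped and the cKO groups did not. It fell in cKO (-0.27, SE 0.08, adjusted p = 0.0249), and the WT value was -0.06 (adjusted p = 0.671). Of the V1 genes that did not pass, Atp6v1b2, which encodes the nucleotide-binding partner of the catalytic subunit, was measured at 81.7, 84, 72.3 and 72.1 CPM in WT sham, 89.5, 84.4, 77.7 and 67.5 in WT TAC, 86.8, 90.5, 75.9 and 76.9 in cKO sham, and 91, 85.3, 81.3 and 78.5 in cKO TAC. Its groups overlapped in all comparisons, and its TAC change was 0.04 in WT and 0.03 in cKO. Atp6v1c1 and Atp6v1f did not pass in any comparison.

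None of the 7 V0 genes passed in any of the 6 comparisons in edgeR, with 0 at an unadjusted p under 0.05 and 0 called by DESeq2 or limma voom. Of all tested genes 15.8% passed with TAC in WT, 26.5% with TAC in cKO and at most 9.06% between the genotypes. An unadjusted p under 0.05 was held by 4.7% to 38.3% of them, depending on the comparison. Atp6v0a1, which encodes a subunit of the proton path, was measured at 146, 108, 121 and 108 CPM in WT sham, 118, 121, 108 and 116 CPM in WT TAC, 131, 137, 159.5 and 127 CPM in cKO sham, and 122, 128, 112 and 135 CPM in cKO TAC. Its groups overlapped in all 4 pairwise comparisons, with a TAC change of -0.06 in WT and -0.16 in cKO. The proteolipid ring genes Atp6v0b and Atp6v0c changed by -0.14 and 0.05 with TAC in WT and by -0.05 and -0.14 in cKO. Of the V0 genes Atp6v0e varied least between the groups, with a highest group mean 1.06 times its lowest. With library totals alone Atp6v0d1 passed as higher in WT TAC (0.28, adjusted p = 0.048), and without WT TAC replicate 4 Atp6v0e2 passed as lower there (-0.58, adjusted p = 0.0237).

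Atp6ap2 was measured at 17.3, 20.7, 22.8 and 23.3 CPM in WT sham, 24.4, 20.8, 22.9 and 24.7 CPM in WT TAC, 18.6, 23, 20.5 and 22.5 CPM in cKO sham, and 27.8, 26.7, 23.8 and 26.2 CPM in cKO TAC. The cKO groups did not overlap. It rose in cKO (0.31, SE 0.10, adjusted p = 0.0383), and the WT value was 0.14 (SE 0.11, adjusted p = 0.376).

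In Ragulator, Lamtor2 was the single gene of 5 that passed in any comparison, namely with TAC in cKO, where 26.5% of all tested genes passed. It encodes a scaffold protein that pairs with that of Lamtor3, and it was measured at 43.1, 37.5, 40.8 and 30.2 CPM in WT sham, 28.9, 32.2, 31.8 and 34.2 CPM in WT TAC, 32.5, 34, 42.2 and 33.7 CPM in cKO sham, and 23.8, 23.5, 34.1 and 27 CPM in cKO TAC. It fell in cKO by 0.39 on the log2 scale (SE 0.13, adjusted p = 0.0316), and cKO TAC replicate 3 at 34.1 CPM lay within the sham range. The WT value was -0.25 (SE 0.13, adjusted p = 0.19). Lamtor5 lay just outside the threshold in cKO (-0.24, SE 0.09, adjusted p = 0.0551) and passed in DESeq2 (0.0364). Lamtor1, which carries the lipid anchor of the complex, was measured at 103, 89.9, 81.5 and 76.2 CPM in WT sham, 88.7, 82.2, 81.3 and 75.1 in WT TAC, 83.7, 78.4, 91 and 78 in cKO sham, and 65.9, 71.6, 82.3 and 70.9 in cKO TAC. Its groups overlapped and its changes of -0.10 in WT and -0.19 in cKO did not pass. Of its exon bases 18.7% are shared with Lrrc51 on the other strand, and the strand setting of the counting was not stated. Lrrc51 itself was higher in cKO over both surgeries (0.85, SE 0.16, adjusted p = 0.00417).

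Among the channels, Tpcn2 had the largest TAC change of the 34 genes in cKO. This gene of a sodium and calcium channel of the lysosome was measured at 6.27, 3.88, 6.65 and 4.41 CPM in WT sham, 8.44, 6.65, 7.12 and 7.93 CPM in WT TAC, 4.11, 6.47, 4.17 and 5.53 CPM in cKO sham, and 10.2, 11.6, 6.69 and 7.56 CPM in cKO TAC. All cKO TAC libraries lay above all cKO sham libraries, with 2 of them well above the rest. It rose 1.77-fold in cKO (0.83, SE 0.21, adjusted p = 0.00748), and in WT the value was 0.51 (SE 0.21, adjusted p = 0.109). Its relative Tpcn1 stood at 57.4, 49.9, 59.8 and 56.6 CPM in WT sham, 57.8, 56.9, 52.2 and 61.7 in WT TAC, 66.8, 62.2, 58.8 and 59.5 in cKO sham, and 52.9, 55.1, 59.9 and 60.7 in cKO TAC. These groups overlapped, and its TAC change was 0.03 in WT and -0.11 in cKO.

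Tmem175 went down with TAC in WT. It was measured at 10.6, 8.96, 10.8 and 12 CPM in WT sham, 7.57, 7.18, 7.45 and 6.76 CPM in WT TAC, 9.13, 8.35, 12.8 and 10.6 CPM in cKO sham, and 9.52, 7.33, 8 and 8.89 CPM in cKO TAC. Every WT TAC library lay below every WT sham library, and the cKO groups overlapped. It fell in WT (-0.55, SE 0.14, adjusted p = 0.0153), and the cKO value was -0.27 (SE 0.14, adjusted p = 0.163), with an interaction of 0.27 that did not pass (adjusted p = 0.956). The WT call ended without WT sham replicate 4 (-0.48, adjusted p = 0.0519), without the 2 libraries highest in atrial transcripts (-0.50, 0.0613) and with library totals alone (-0.42, 0.0573). Of its exon bases 35.3% are shared with Dgkq on the other strand, and Dgkq changed by 0.22 in the same comparison (adjusted p = 0.385).

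Of the positioning genes, Arl8a rose in cKO and its near relative Arl8b did not pass in either genotype. Arl8a was measured at 27.8, 29.7, 27.5 and 28.9 CPM in WT sham, 33.9, 32.5, 35.8 and 36.6 CPM in WT TAC, 31.2, 33.6, 23.2 and 32.6 CPM in cKO sham, and 39.6, 38.7, 39.1 and 40.9 CPM in cKO TAC. TAC libraries lay above sham libraries in both genotypes. The change was 0.39 in cKO (SE 0.10, adjusted p = 0.00673) and 0.29 in WT (SE 0.10, adjusted p = 0.0546). The WT rise passed in DESeq2 (0.28, adjusted p = 0.0436), with library totals alone (0.41, 0.017) and without cKO sham replicate 3 (0.29, 0.0126).

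Arl8b was measured at 87.4, 92, 88.8 and 97.2 CPM in WT sham, 77.8, 82.8, 85.6 and 84 CPM in WT TAC, 91.7, 89.1, 90.6 and 89.4 CPM in cKO sham, and 77.5, 79.3, 81.7 and 82.4 CPM in cKO TAC. TAC libraries lay below sham libraries in both genotypes, opposite to Arl8a. The change was -0.15 in WT (SE 0.07, adjusted p = 0.141) and -0.17 in cKO (SE 0.07, adjusted p = 0.0674), and both passed in DESeq2 (0.0375 and 0.00918). Per kilobase of exon Arl8b stood at 19.2 CPM and Arl8a at 14.5 over all libraries. Of the BORC genes, Borcs5, Borcs6 and Borcs7 had TAC values of -0.40, -0.33 and -0.37 in WT, none past the threshold in edgeR (adjusted p = 0.0621, 0.154 and 0.124), and Borcs5 passed in DESeq2 (0.0404). Borcs6 shares 41.2% of its exon bases with an antisense gene. Bloc1s2 changed by less than its error in WT and in cKO (0.09, SE 0.19).

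The calls in cKO differed in how far they rested on single libraries. Tpcn2 and Arl8a passed under all 26 alternatives tried. Atp6v1d and Atp6v1e1 passed in all but library totals alone (-0.12, adjusted p = 0.281, and -0.14, 0.168). Without cKO sham replicate 1 the count was 5, with Atp6v1a (adjusted p = 0.0543), Atp6v1g1 (0.067), Atp6v1h (0.0711) and Atp6ap2 (0.125) lost. Without cKO sham replicate 3 it was 4, with Atp6v1a (0.0665), Atp6v1g1 (0.0581), Atp6v1h (0.0712), Atp6ap2 (0.0867) and Lamtor2 (0.119) lost. Without cKO TAC replicate 1 it was 4, and without cKO TAC replicate 2 it was 4, with those 5 genes lost each time (adjusted p of 0.0811 to 0.135 and of 0.0576 to 0.0947). Without cKO sham replicate 4 Atp6v1a (0.0511) and Atp6v1h (0.118) did not pass. Without cKO TAC replicate 4 the count was 6, with Atp6v1h (0.0501), Atp6ap2 (0.0786) and Lamtor2 (0.0591) lost. In WT the Atp6v1a call ended without TAC replicate 1 (0.0913), 2 (0.072) or 3 (0.0688). All of these values kept their direction.

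Genes around the members were read from 4 further lists and a comparison list. Their counts stand against the shares of all tested genes that passed: 15.8% with TAC in WT (9.7% higher, 6.14% lower), 26.5% with TAC in cKO (14.2% higher, 12.4% lower) and 9.06% between the genotypes over both surgeries. Of 21 other pump subunit and assembly genes 15 were tested. With TAC 3 rose and 1 fell in WT, where 15.8% of all genes passed, and 3 rose in cKO, where 26.5% passed. The list was not tested against these shares. Atp6v0a4, a V0 subunit gene best known from kidney, was measured at 0.229, 0.373, 1.18 and 0.0773 CPM in WT sham, 1.93, 1.99, 1.49 and 2.1 in WT TAC, 0.326, 1.29, 0.298 and 0.484 in cKO sham, and 5.87, 5.94, 1.38 and 3.33 in cKO TAC. The TAC libraries lay above the sham libraries in both genotypes, with a rise of 2.74 in cKO (SE 0.55, adjusted p = 0.00178) and 1.98 in WT (SE 0.61, adjusted p = 0.0348). These rises started from few counts, 1 to 16 per library in WT sham and 4 to 20 in cKO sham. Without the filter on low counts the WT rise did not pass (adjusted p = 0.101). Ncoa7, a pump-binding protein gene, rose by 0.83 in cKO and 0.69 in WT, and Tcirg1, the V0 subunit gene of osteoclasts and immune cells, by 0.64 and 0.45. The WT call of Atp6v0a4 ended without WT sham replicate 1, 2 or 4 or WT TAC replicate 1, 2 or 4 (adjusted p of 0.0629 to 0.0917), and that of Tcirg1 ended without any single library other than WT sham replicate 1, WT TAC replicate 3, cKO sham replicate 2, cKO TAC replicate 1 and cKO TAC replicate 3 (0.0541 to 0.184). Between the genotypes 0 of these 15 passed in edgeR in any comparison, with 2 to 3 at an unadjusted p under 0.05, against 15% to 24.5% of all tested genes. Over both surgeries DESeq2 called 2 and limma voom 1.

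The Rag, GATOR, folliculin and mTORC1 list held 36 genes, all tested. With TAC 1 rose and 3 fell in WT, where 9.7% of all genes rose and 6.14% fell. In cKO 0 rose and 7 fell, where 14.2% of all genes rose and 12.4% fell. In both genotypes the share that passed was smaller than over all genes (15.8% and 26.5%), but the share that fell was larger. The list was not tested against these shares. Rragd, the gene of the Rag partner that folliculin acts on, stood at 79.5, 93.5, 90.7 and 108 CPM in WT sham, 62.8, 73.7, 75 and 68.6 in WT TAC, 92.8, 83.7, 84.6 and 92.8 in cKO sham, and 50.3, 52.2, 65.3 and 61.5 in cKO TAC. It fell in cKO (-0.63, SE 0.10, adjusted p = 0.000363) and in WT (-0.41, SE 0.10, adjusted p = 0.0123), where the call ended with library totals alone (-0.29, adjusted p = 0.0562). Tbc1d7, a subunit gene of the TSC complex that restrains mTORC1, fell in cKO (-0.39, SE 0.09, adjusted p = 0.00616), a call that ended with library totals alone (-0.19, adjusted p = 0.122), and its WT value was 0.05 (adjusted p = 0.778). Slc7a5, a leucine transporter gene, was higher in cKO over both surgeries (0.86, SE 0.17, adjusted p = 0.00679) and after sham surgery (1.22, adjusted p = 0.024), and it rose with TAC in WT (1.05, adjusted p = 0.0107). Its TAC value in cKO was 0.32 (adjusted p = 0.344) and its difference between the genotypes after TAC was 0.50 (adjusted p = 0.288), and neither passed. Its sham call ended without WT sham replicate 1, 2 or 4 or cKO sham replicate 2 or 4 (adjusted p of 0.0527 to 0.0874).

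Of 18 other lysosomal channels and exchangers 15 were tested. In WT 1 fell with TAC, Clcn3 (-0.33, SE 0.11, adjusted p = 0.0412), and in cKO 1 rose, Slc9a9 (0.77, SE 0.21, adjusted p = 0.0133), and 1 fell, Mfsd8 (-0.47, SE 0.11, adjusted p = 0.00553), against 15.8% and 26.5% of all genes. With library totals alone neither Mfsd8 (-0.28, adjusted p = 0.0548) nor Clcn3 (-0.21, adjusted p = 0.178) passed. Clcn3 also missed the threshold with the WT groups fitted alone (0.0848) and without a filter on low counts (0.0623). Slc9a9 did not pass without cKO sham replicate 1 (0.63, adjusted p = 0.0525), and Clcn3 ended without WT sham replicate 4, any WT TAC replicate, cKO sham replicate 1 or cKO TAC replicate 4 (0.0503 to 0.153). Of 39 positioning, tethering and fusion genes 3 rose and 3 fell in WT, 3 rose and 6 fell in cKO, and 2 were higher and 2 lower in cKO over both surgeries, where 15.8%, 26.5% and 9.06% of all genes passed. Dync1li1, a dynein light intermediate chain gene that serves transport towards the cell centre, rose in WT (0.49, SE 0.09, adjusted p = 0.00102) and in cKO (0.45, SE 0.09, adjusted p = 0.00112). Rilpl1 and Rilp, which encode Rab-binding proteins, fell in cKO (-0.67, SE 0.11, adjusted p = 0.000319, and -0.57, SE 0.13, adjusted p = 0.00388). In a comparison list of 29 lysosomal enzymes and membrane proteins, 3 rose and 4 fell with TAC in WT, 6 rose and 4 fell in cKO, and 1 was higher in cKO over both surgeries, against the same shares of all genes. Ctsf fell in both genotypes (-0.45 and -0.50), and Ctsz rose in both (0.59 and 0.69). The WT call of Ctsz ended without WT sham replicate 2 or 4 or WT TAC replicate 1 or 4 (adjusted p of 0.0587 to 0.0985).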

How the data were processed

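RNA from mouse left ventricle was sequenced as paired ends in 16 libraries. The deposited values are whole-number read counts per Ensembl gene ID and library, not normalized by the authors. The submitters' processing notes list featureCounts 2.0.6, SAMtools 1.21, HISAT2 2.0.5, fastp 0.22.0 and FastQC, and the build GRCm39. The annotation release, strand setting and treatment of reads with several matches were not given in the sources used here. Of 57186 gene IDs, 51880 matched a symbol, with 99.52% of counts. Totals were 12946878 to 16347388 counts per library, and the biological coefficient of variation was 16.5%.

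The tests were run in edgeR 4.0.16 under R 4.3.3 (filterByExpr, TMM factors, robust quasi-likelihood F-test, 1 mean per group, 12 residual degrees of freedom), with Benjamini-Hochberg adjustment over 15206 genes in each of 6 comparisons and a threshold of 0.05. The script was checked on simulated counts, with changed genes drawn from all tested genes and not from the members. It recovered 31.3% to 44.4% of 1.5-fold changes between 2 groups, 65.7% between the genotypes over both surgeries and 3.03% for the interaction. For 2-fold changes it recovered 66.7% to 77.8%, 86.9% and 47.4%. Smaller changes can thus be missed. DESeq2 1.42.0 and limma 3.58.1 (voom) were alternatives, with other scalings, filters and subsets of libraries. Leaving out the 2 WT libraries highest in atrial transcripts was chosen after seeing the data. The members and lists were chosen with earlier results of these data known. Per-library values are given for each member that passed and for 1 further gene per role, the one of highest mean CPM. From each list up to 3 genes of smallest adjusted p are named. A gene that this rule picked is not reported here. Exon lengths and overlaps came from a GRCm38 annotation. Annotated transcripts were searched with minimap2 for stretches of at least 90% identity to the members. Only matches in pseudogenes were kept, so matches in other genes are not described. For Atp6v1g1 a 99.4% identical match held 47 counts over all libraries, and for Atp6v0c a 99.8% identical match held 104. The match with the most counts, 222, was a 96.5% identical one of Lamtor1. Low counts limit precision for Bloc1s1, with 203 in all, and 55.9% of its exon bases are shared with Rdh5 on the same strand.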

Additional observations from a re-analysis of the deposited data

Results flagged for a closer look

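In 9 of 136 groups of 4 libraries (34 genes in 4 groups), 1 library stood apart from the other 3 by more than Dixon's 95% critical value for the gap over the range. Chance alone gives about 1 such group in 20. WT sham replicate 1 was the highest of its group for Atp6v0b (108 CPM, others 71.4 to 77.6), Atp6v1f (65.8, others 38.8 to 43.1) and Borcs6 (22.5, others 12.2 to 13.9). WT sham replicate 3, the library with the most atrial transcripts, was the highest for Atp6v0a2 (66.1, others 52 to 54.3). In WT TAC, replicate 3 was the highest for Atp6v0e (37.5, others 33.9 to 34.5), and replicate 4 was the lowest for Atp6v1a (30.5, others 34.7 to 34.8). In cKO sham, replicate 3 was the highest for Lamtor2 (42.2, others 32.5 to 34) and for Lamtor4 (31, others 24.3 to 25.2), and replicate 2 was the highest for Bloc1s1 (1.75, others 0.521 to 0.623).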

How the results depend on the processing

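The 12 called results of members kept their direction in all 311 alternative values, and 260 of these passed as well. Of the 192 results of members that did not pass, 15 passed under some alternative. In WT TAC against sham, 2 members passed, and the count was 5 with library totals, 5 with DESeq2 (2 higher, 3 lower), 1 with the WT groups alone, 1 without the 2 WT libraries highest in atrial transcripts, and 1 to 3 with 1 library left out. In cKO TAC against sham, 9 passed, 6 passed without a filter on low counts, and the range was 4 to 11 with 1 library left out. Between the genotypes after sham surgery, 0 passed in edgeR and 1 with DESeq2. Averaged over both surgeries, 1 passed, 0 without a filter, and 0 to 2 with 1 library left out. The cause of these shifts was not tested. No clear pairing by replicate number was seen, and the labels do not say whether a number marks a shared litter, day or batch. Same-numbered libraries of different groups correlated at -0.16 to 0.229 in their deviations from group means (median 0.0206, 24 pairs). Pairs with other numbers ran from -0.281 to 0.239 (median -0.0125, 72 pairs), and 5 of 16 libraries correlated best with their own number. With a replicate block the counts were 2, 9, 0, 0, 1 and 0, as without it. With bases before the start alone, TCACGTGA was in 3 of 26 members (11.5%, against 0.907%) and CACGTG in 6 (23.1%, against 6.86%). Precision was lowest for Bloc1s1, whose averaged interval ran from -0.80 to 0.31.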

Other observations

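Atp6v1a, which rose with TAC in both genotypes, and Atp6v1e1, 1 of the 3 V1 genes that fell in cKO, were set against each other within each library, a pair chosen after their values were seen. The ratio of Atp6v1a to Atp6v1e1 CPM ran from 0.215 to 0.327 in WT sham (median 0.31), 0.37 to 0.457 in WT TAC (median 0.432), 0.26 to 0.324 in cKO sham (median 0.288) and 0.391 to 0.513 in cKO TAC (median 0.499). Each gene alone already separated TAC from sham libraries in both genotypes, in opposite directions. The ratio therefore had to separate them too, and its lack of overlap adds no support. The genotypes overlapped within each surgery. This ratio does not depend on how libraries are scaled to each other, and it is a description with no test.

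Of the 21 other pump subunit and assembly genes, 6 had too few counts to be tested. Over all 16 libraries Atp6v0d2, a subunit gene of osteoclasts, had 51 counts, the kidney and epididymis gene Atp6v1b1 had 5, Atp6v1c2 had 16, the testis gene Atp6v1e2 had 4, Tldc2 had 6 and Atp6v1g3 had 0. Among the channels Mcoln2 had 75 counts and Mcoln3 had 11.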
